A study of Mus musculus with 2 samples.

Results

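The genes that make, carry, sense and remove retinoic acid were examined on 1 expression array of Lsh-/- mouse embryonic fibroblasts (MEF) and 1 array of Lsh+/+ (wild type) MEF. Lsh, the product of Hells, is a chromatin remodelling protein needed for normal DNA methylation, and the cells labelled Lsh-/- carry its knockout. The set held 9 genes of 16579 with a named row: Rbp4, Stra6, Aldh1a1, Aldh1a2, Rarb, Rarg, Crabp1, Crabp2 and Cyp26b1. They were chosen by their place in the retinoid pathway with the values of these same arrays already known, so their differences are a description. Both lines were grown in DMEM with fetal bovine serum and no added retinoid is named in the labels. The sources used here do not say how many embryos or clones stand behind each line. There were no replicates and therefore no p-values, and a difference between the arrays cannot be told apart from a difference between 2 cultures, lines or hybridisations. In bulk RNA, fewer cells of a type and less RNA per cell also cannot be told apart.

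Vitamin A (retinol) travels in blood bound to a carrier protein, enters cells, and is oxidised first to retinaldehyde and then to retinoic acid. Retinoic acid binds nuclear receptors that pair with retinoid X receptors at response elements in DNA, and cytochrome P450 enzymes of the Cyp26 family break it down. In the embryo the places that make it and the places that degrade it set up gradients that pattern the trunk, limbs, heart and hindbrain. DNA methylation was not measured on these arrays.

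Of the 9 genes, Rbp4 and Aldh1a2 were higher in Lsh-/- MEF, Aldh1a1 was lower, and the receptors Rarb and Rarg and the uptake receptor Stra6 lay within 2-fold. Crabp1, Crabp2 and Cyp26b1 were dim on both arrays. The sequence at the start of these genes is shown first, because the study concerned cytosine methylation and because CpG content differs widely among the members that differed most. The RefSeq promoter table (GRCm38.p6) held 14 windows for 8 of the 9 genes, each of 250 bases before to 50 bases after an annotated start. Crabp2 had no window. The bases before the start of Aldh1a2, higher in Lsh-/- MEF, are at chr9:71215539-71215788 on the + strand, and those before the second listed start of Aldh1a1, lower in Lsh-/- MEF, are at chr19:20601718-20601967 on the + strand. Capitals mark CpG, the dinucleotide that carries most cytosine methylation in mammals.
Aldh1a2: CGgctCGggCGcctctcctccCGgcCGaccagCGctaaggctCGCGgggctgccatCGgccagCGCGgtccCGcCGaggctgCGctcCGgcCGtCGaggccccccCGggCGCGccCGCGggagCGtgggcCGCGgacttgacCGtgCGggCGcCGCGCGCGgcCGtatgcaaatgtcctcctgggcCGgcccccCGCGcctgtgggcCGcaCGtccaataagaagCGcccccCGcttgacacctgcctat
Aldh1a1: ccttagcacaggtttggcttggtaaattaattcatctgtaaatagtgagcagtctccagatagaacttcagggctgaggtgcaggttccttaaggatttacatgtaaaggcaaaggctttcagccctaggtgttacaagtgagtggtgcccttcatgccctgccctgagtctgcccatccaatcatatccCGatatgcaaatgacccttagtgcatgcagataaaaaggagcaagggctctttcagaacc

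The 250 bases before the start of Aldh1a2 held 40 CpG, against 1 CpG in those before the second listed start of Aldh1a1. That start lay 109385 bases from the annotated 5′ end of the gene, and the 250 bases before the first held 3 CpG. Over the whole 300-base windows Aldh1a2 had 50 CpG at a GC content of 78.0%, and 99.1% of the 32851 windows in the table had fewer. Its observed CpG count was 1.11 times that predicted from the C and G content. Aldh1a1 had 3 and 1 CpG at its 2 listed starts, with observed counts of 0.213 and 0.0604 times the prediction, and 5.43% of windows had fewer than the start with 1 CpG. Rbp4 had 5 CpG at its outer start and 40 CpG at an inner start 510 bases downstream, which 96.1% of windows did not reach. Aldh1a2 and 1 of the 2 starts of Rbp4 were thus CpG-dense, while the outer start of Rbp4 and both starts of Aldh1a1 were not. The 3 genes were picked on this contrast, so nothing is drawn from these counts, and a part of DNA methylation in the differences was not tested.

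The other members lay between these. Rarb and Crabp1 had 17 CpG each, Rarg 12 and 10, Stra6 between 5 and 10 at its 4 starts, and Cyp26b1 9. The median window of the table held 7 CpG, with quartiles of 3 and 20. Over the whole array the medians of higher and lower genes did not differ in this way. Taking the richest window of each gene, the median was 19 CpG in the 317 genes at least 2-fold higher in Lsh-/- MEF that had a window and also 19 CpG in the 428 genes at least 2-fold lower, against 23 CpG in the 6634 within 2-fold.

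**Figure D1:**
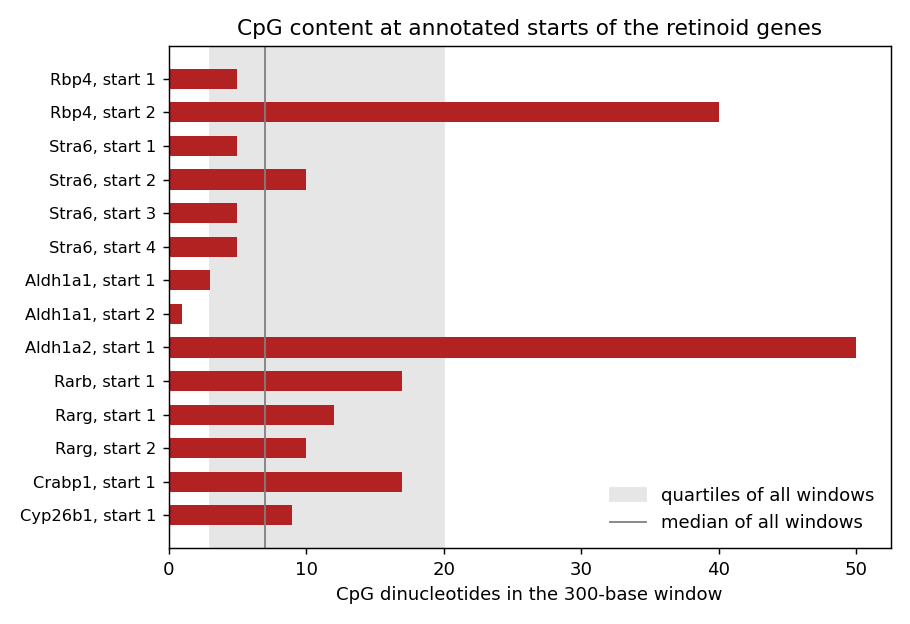
CpG dinucleotides (horizontal axis, count) in the 300-base window at each annotated start of 8 retinoid genes. The band and line give the quartiles (3 and 20) and the median (7) of all 32851 windows, and Aldh1a2 with 50 and the inner start of Rbp4 with 40 lie beyond the band, while the starts of Aldh1a1 hold 3 and 1.

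Rarb, a retinoic acid receptor that is itself a textbook target of retinoic acid, had a retinoic acid response element in its window. The search was for DR5, a direct repeat spaced by 5 bases, and for DR2, spaced by 2 bases, each a pair of receptor motif units (AGGTCA itself, the variant AGTTCA, the variant GGGTCA or else the variant GGTTCA), on both strands. The only listed Rarb start lay 506855 bases from the annotated 5′ end of the gene, so it is an inner start. The 250 bases before it, at chr14:16575477-16575726 on the minus strand, are shown with the DR5 match in capitals.
Rarb: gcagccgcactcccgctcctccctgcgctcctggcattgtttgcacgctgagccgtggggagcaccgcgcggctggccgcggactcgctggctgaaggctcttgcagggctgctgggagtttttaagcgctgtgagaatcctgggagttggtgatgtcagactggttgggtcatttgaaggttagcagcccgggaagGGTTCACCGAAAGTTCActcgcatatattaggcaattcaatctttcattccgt

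The match began 53 bases before the start and ended 37 bases before it. It was the only DR5 match in the 14 windows of the set, and 32 of the 32851 windows in the table, 0.0974%, held one. No window of the set held a DR2 match, which 0.268% of all windows did. A lone unit is common, being present in 43.7% of all windows, and occurred here in windows of Stra6, Rarg, Aldh1a1 and Rbp4, and once apart from the DR5 in that of Rarb. A match of letters is a description and not evidence of binding in these cells.

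The arrays were Affymetrix Mouse Genome 430 2.0, and all levels below are deposited RMA values on the log2 scale, which can be compared between arrays for 1 gene but not between genes. A gene was taken as bright enough to weigh when the higher of its 2 values reached the middle value of its array over all rows, 3.88 for Lsh-/- MEF and 3.86 for Lsh+/+ MEF. This brightness limit was passed by 9168 genes, among them 6 of the 9 members. Hells, the gene targeted, read 5.22 in Lsh-/- MEF and 6.68 in Lsh+/+ MEF, 2.75-fold lower and still above the brightness limit on the Lsh-/- array. The sources used here do not place its probes relative to the deleted part, so the row does not show the loss of the protein or of the gene. All differences are Lsh-/- minus Lsh+/+; over the 9168 genes their quartiles were -0.34 and 0.35 and their median 0.01. The 9 hybridisation controls, RNA added in a fixed amount, were higher on the Lsh-/- array by a median of 0.44, so every direction below is relative to the other genes. The 3′ to 5′ gap of the control probe sets, a sign of RNA integrity, was 3.15 in Lsh-/- MEF and 2.56 in Lsh+/+ MEF for Actb, and 2.84 in Lsh-/- MEF and 2.14 in Lsh+/+ MEF for Gapdh. The part of either in the results below was not tested.

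Of the 6 members past the brightness limit, 2 were at least 2-fold higher in Lsh-/- MEF, where 4.65% of the 9168 genes were, and 1 was at least 2-fold lower, where 6.06% of the 9168 were. These shares are a background for reading the counts, and nothing is drawn from them, since the members were picked on this contrast. Aldh1a2 passed the limit through the Lsh-/- array alone. The median difference of the 6 was 0.37, against 0.01 over all 9168 genes. It was -0.21 over all 9 members.

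**Figure D2:**
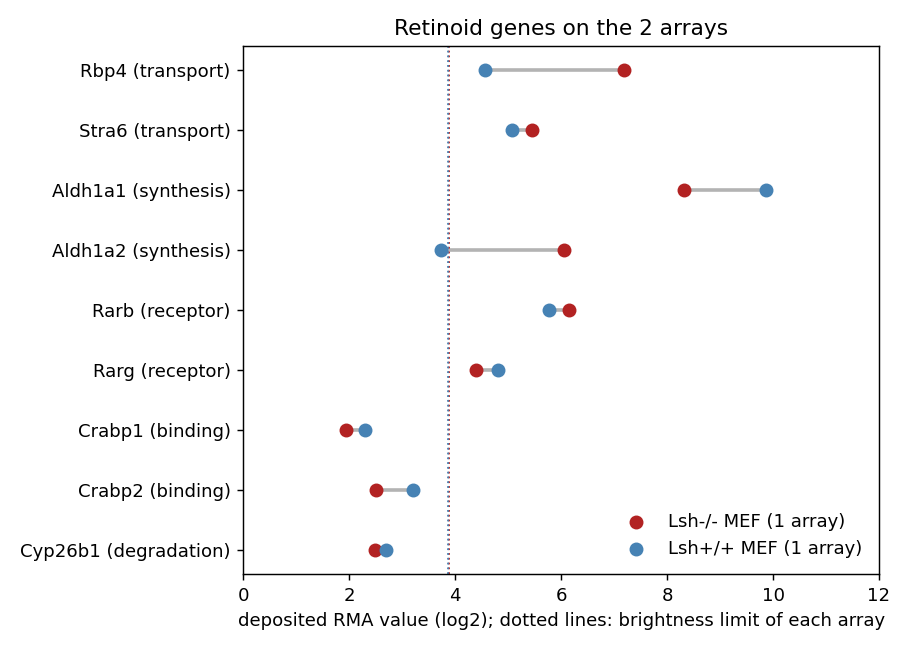
Deposited log2 values (horizontal axis) of the 9 retinoid genes, with 1 point for the Lsh-/- array and 1 for the Lsh+/+ array and a line joining them. Dotted lines mark the brightness limits of 3.88 (Lsh-/-) and 3.86 (Lsh+/+). Rbp4 and Aldh1a2 have the Lsh-/- point far to the right, Aldh1a1 has it to the left, and Crabp1, Crabp2 and Cyp26b1 lie below the limit on both arrays.

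Rbp4, the secreted protein that carries retinol in blood, read 7.18 in Lsh-/- MEF and 4.55 in Lsh+/+ MEF. It was bright enough on both arrays, and its difference of 2.63 made it 6.18-fold higher in Lsh-/- MEF. It stood at rank 38 of 9168 from the highest difference. Among the 2301 genes within 0.5 of its mean level, 95 (4.13%) were at least 2-fold higher, and their quartiles were -0.34 and 0.35. The gene had 2 rows with the same pair of values, so they are 1 measurement.

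Stra6, the membrane receptor that takes up retinol from Rbp4, did not share that difference. It read 5.45 in Lsh-/- MEF and 5.07 in Lsh+/+ MEF, a difference of 0.37, which 23.7% of the 9168 genes exceeded. Its 4 rows held 1 pair of values. With the Lsh-/- array scaled to the hybridisation controls the difference was -0.0625, so its direction rests on the scaling.

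The retinaldehyde dehydrogenases, which carry out the last step to retinoic acid, differed in opposite directions. Aldh1a2, the main source of retinoic acid in the early embryo, read 6.05 in Lsh-/- MEF and 3.73 in Lsh+/+ MEF, where it lay just under the brightness limit. The measured difference was 2.32, rank 54 from the highest, and counted over the limit the gene was at least 4.57-fold higher. Among the 2219 genes near its mean level, 102 were at least 2-fold higher.

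Aldh1a1, a family member widely expressed in adult tissues, read 8.32 in Lsh-/- MEF and 9.87 in Lsh+/+ MEF. Both values were well above the limit. The difference of -1.56 made it 2.95-fold lower, at rank 246 from the lowest. Of the 295 genes near its mean level, 13 (4.41%) were at least 2-fold lower and 5 (1.69%) at least 2-fold higher. Near the mean level of Rbp4 these shares were 4.87% and 4.13%, so mainly the higher side was thinner at this bright end. Aldh1a7, a close relative of Aldh1a1 in rodents that is the next measured gene on chromosome 19, went the other way, with 6.91 in Lsh-/- MEF and 4.92 in Lsh+/+ MEF, 3.98-fold higher. The sources used here do not say whether the rows of these related genes share probes, and their values are uncertain to that extent.

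**Figure D3:**
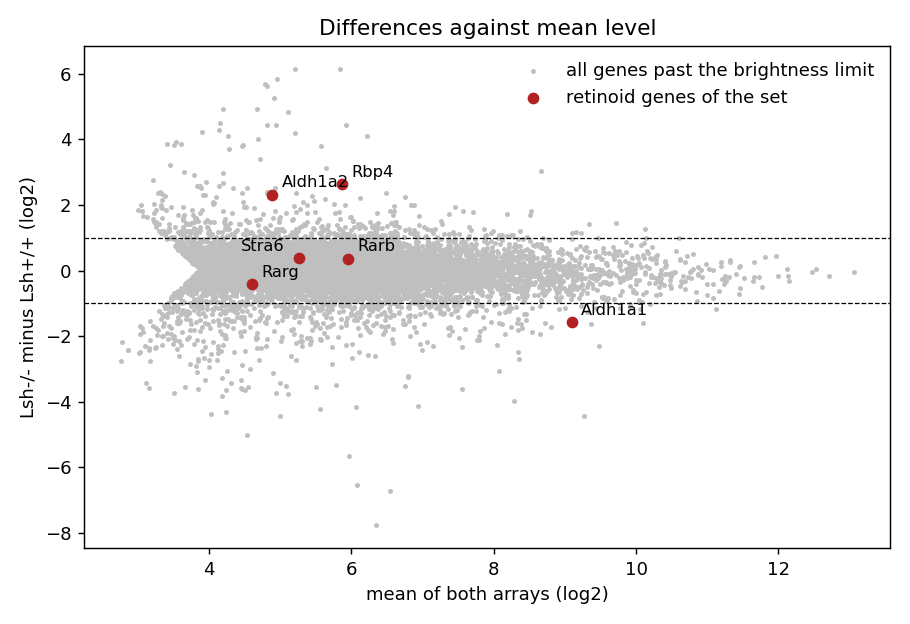
Difference between the arrays (Lsh-/- minus Lsh+/+, log2, vertical axis) against the mean of both arrays (log2, horizontal axis) for the 9168 genes past the brightness limit, in grey, with the 6 retinoid genes among them in red. Dashed lines mark 2-fold. Rbp4 (2.63) and Aldh1a2 (2.32) lie above the upper dashed line and Aldh1a1 (-1.56) below the lower one, with other genes farther out on both sides. Stra6, Rarb and Rarg lie between the lines.

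The receptors lay close to the bulk of the genes. Rarb read 6.14 in Lsh-/- MEF and 5.78 in Lsh+/+ MEF, a difference of 0.36 that 24.2% of the 9168 genes exceeded. Scaled to the hybridisation controls it was -0.072. Rarg, the receptor of developing skin and cartilage, read 4.40 in Lsh-/- MEF and 4.82 in Lsh+/+ MEF, a difference of -0.41, with 20.8% of genes lower. Rarb, whose window holds the DR5, was within 2-fold, and Aldh1a2, which encodes an enzyme that makes retinoic acid, was at least 4.57-fold higher. Retinoic acid was not measured, and a link between these genes was not tested.

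The members that bind retinoic acid in the cytoplasm and degrade it could not be weighed. Crabp1 read 1.93 in Lsh-/- MEF and 2.30 in Lsh+/+ MEF. Crabp2, which hands retinoic acid to its receptors, read 2.51 in Lsh-/- MEF and 3.20 in Lsh+/+ MEF. Cyp26b1, a degrading enzyme, read 2.48 in Lsh-/- MEF and 2.69 in Lsh+/+ MEF. All 6 values lay below the brightness limits, so no fold is given. The limit is not a detection limit, and the genes are not shown to be silent.

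Of 101 further retinoid pathway entries in 6 lists, 93 had a named row and 51 passed the brightness limit. By measured difference, 9 of the 51 were at least 2-fold higher in Lsh-/- MEF and 5 at least 2-fold lower, 37 lay between, and the median difference was 0.20. Over all 9168 genes 4.65% were higher and 6.06% lower by the same measure. With a dimmer value below the brightness limit set to that limit, 7 of the 51 reached 2-fold upwards and 3 downwards, since Gps2, Icam1, Aldh1b1 and Hoxb4 then have bounds under 2-fold. With the pseudocount of 32, Lpl and Aldh1a7 alone stayed past 2-fold. Scaled to the hybridisation controls the split became 5 higher and 8 lower with a median of -0.23. The differences of the 51 ran from -2.73 for Hoxb2 to 1.99 for Aldh1a7.

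**Figure D4:**
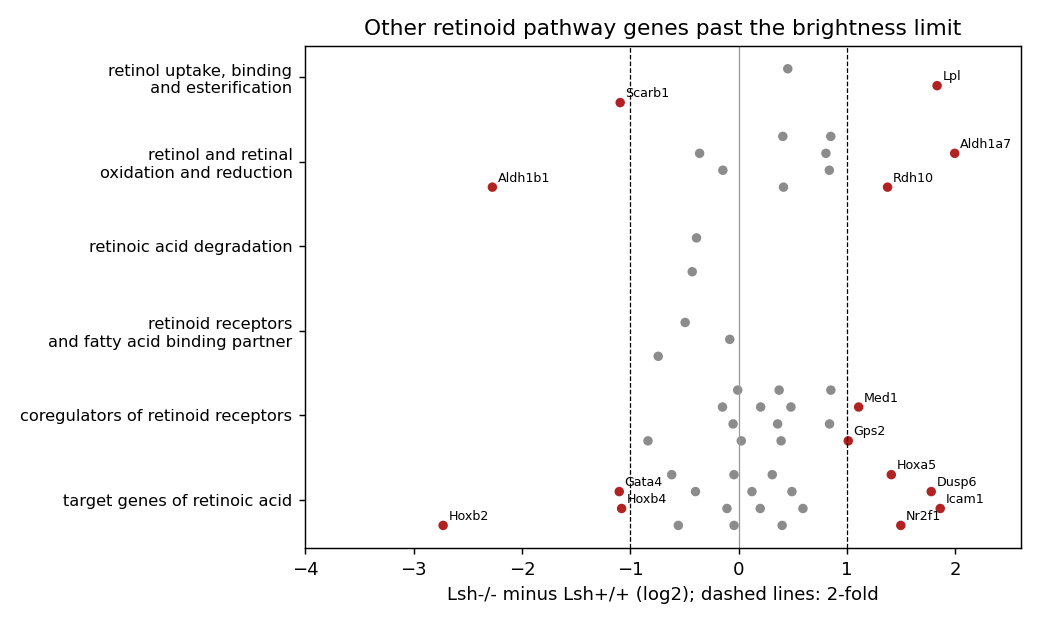
Differences (Lsh-/- minus Lsh+/+, log2, horizontal axis) of the 51 other retinoid pathway genes past the brightness limit, by list, 1 point per gene; height within a list has no meaning. Named red points lie at 2-fold (dashed lines) or beyond by measured difference, 9 to the right and 5 to the left, with Hoxb2 at -2.73 farthest out.

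Among genes of retinol uptake, binding and esterification, 3 of 11 passed the limit. Scarb1, a lipoprotein and carotenoid receptor, read 6.27 in Lsh-/- MEF and 7.36 in Lsh+/+ MEF, 2.13-fold lower. Lpl, a lipase that also acts on retinyl esters, read 8.48 in Lsh-/- MEF and 6.65 in Lsh+/+ MEF, 3.56-fold higher. Lrat, which esterifies retinol for storage, lay at 1.84 in Lsh-/- MEF and 1.48 in Lsh+/+ MEF, below the limits.

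Of the enzymes that oxidise or reduce retinol and retinaldehyde, 10 of 25 measured passed the limit, with a median difference of 0.61. Over all 25 the median was 0.00. By measured difference 2 of the 10 were at least 2-fold higher (4.65% of all 9168 genes) and 1 at least 2-fold lower (6.06% of all). Rdh10, which makes retinaldehyde from retinol in the embryo, read 6.98 in Lsh-/- MEF and 5.61 in Lsh+/+ MEF, 2.59-fold higher. Its difference of 1.37 became 0.94 with hybridisation-control scaling and 0.97 with the pseudocount of 32, both under 2-fold. Dhrs3, which runs the opposite step, read 7.64 in Lsh-/- MEF and 7.999 in Lsh+/+ MEF, a difference of -0.36. Aldh1b1, a mitochondrial aldehyde dehydrogenase, read 2.47 in Lsh-/- MEF and 4.75 in Lsh+/+ MEF, at least 1.82-fold lower counted over the limit. Cyp1b1, a P450 that can oxidise retinol, differed by 0.85 and the alcohol dehydrogenase Adh5 by -0.15. Aldh1a3, the remaining classical retinaldehyde dehydrogenase, was dim, at 2.76 in Lsh-/- MEF and 2.58 in Lsh+/+ MEF.

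The 2 further degrading enzymes and 3 further receptors past the limit all lay within 2-fold, where 89.3% of the 9168 genes did. Cyp26a1, the Cyp26 enzyme most readily induced by retinoic acid, read 3.50 in Lsh-/- MEF and 3.89 in Lsh+/+ MEF, where it barely reached the limit. Cyp2s1, a P450 reported to act on retinoic acid, differed by -0.43. The retinoid X receptors Rxra and Rxrb, partners of the retinoic acid receptors, differed by -0.74 and -0.08. Rara lay below the limits at 3.13 in Lsh-/- MEF and 3.28 in Lsh+/+ MEF.

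Of the coregulators that the receptors recruit, 14 passed the limit and 12 of these lay within 2-fold, where 89.3% of the 9168 genes did. Their median difference was 0.37. Med1, a Mediator subunit that contacts nuclear receptors, read 6.52 in Lsh-/- MEF and 5.41 in Lsh+/+ MEF, 2.15-fold higher. Gps2, a subunit of the corepressor complex, read 4.32 in Lsh-/- MEF and 3.31 in Lsh+/+ MEF, which is 1.01 apart as measured and at least 1.38-fold when counted from the limit. Neither call was firm. After subtraction of the chromosome 11 median (0.18 over 817 genes) Med1 was at 0.93 and Gps2 at 0.83, and with hybridisation-control scaling they were at 0.67 and 0.57. The mean over its rows put Med1 at 0.54, and with the pseudocount Med1 was at 0.73 and Gps2 at 0.31. Quantile normalization and loess also took Gps2 just under 2-fold, to 0.99 and 0.96. The methyltransferase Prmt1 differed by 0.39 and the corepressor subunit Tbl1x by -0.84.

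Genes known to respond to retinoic acid in other settings differed in both directions. By measured difference, of 19 past the limit 4 were at least 2-fold higher (4.65% of all 9168 genes), 3 at least 2-fold lower (6.06% of all) and 12 between, with a median of 0.12. Counted from the limit, 3 reached 2-fold upwards and 2 downwards. The higher genes were Dusp6, a phosphatase of ERK kinases, at 3.43-fold, Nr2f1, an orphan nuclear receptor, at 2.82-fold, Hoxa5 at 2.65-fold (a difference of 1.41, or 0.97 with hybridisation-control scaling) and the adhesion molecule Icam1 at no less than 1.97-fold over the limit. The lower genes were Gata4, a heart and gut endoderm factor, at 2.15-fold, and the Hox genes Hoxb2 and Hoxb4 at no less than 2.79-fold and 1.32-fold. Tgm2, a transglutaminase induced by retinoic acid in many cells, read 10.4 in Lsh-/- MEF and 10.5 in Lsh+/+ MEF. The protease gene Plat differed by 0.40. The Hox genes named here lay on opposite sides, with Hoxa5 at a difference of 1.41, Hoxb4 at -1.08 and Hoxb2 at -2.73.

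Rbp4 and Aldh1a1 share chromosome 19, and Stra6, Aldh1a2 and Crabp1 share chromosome 9. Over genes past the brightness limit the median difference was -0.01 on chromosome 19 (355 genes) and -0.11 on chromosome 9 (533 genes). Of the 36 nearest measured genes, 2 on each side of each member by gene order in GRCm38.p6, 22 passed the limit. By measured difference 3 of the 22 were at least 2-fold higher, 1 at least 2-fold lower and 18 between, with a median of 0.08, where 4.65%, 6.06% and 89.3% of the 9168 genes were. Counted from the limit, 2 were at least 2-fold higher, Ffar4 having a bound under 2-fold.

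Beside Aldh1a2, Polr2m differed by -0.72 and Myzap by -0.90, while Lipc and Aqp9 on the other side were dim on both arrays. Beside Rbp4, the fatty acid receptor Ffar4 read 4.14 in Lsh-/- MEF and 2.54 in Lsh+/+ MEF, at least 1.21-fold higher over the limit. Fra10ac1 and Cep55, also within 2 genes of Rbp4, differed by -0.22 and 0.42. Beside Stra6, Islr, a secreted protein of mesenchymal cells, read 7.52 in Lsh-/- MEF and 9.28 in Lsh+/+ MEF, 3.39-fold lower. Beside Rarb, the deglycosylating enzyme gene Ngly1 was 2.21-fold higher, at 6.28 in Lsh-/- MEF and 5.14 in Lsh+/+ MEF.

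**Figure D5:**
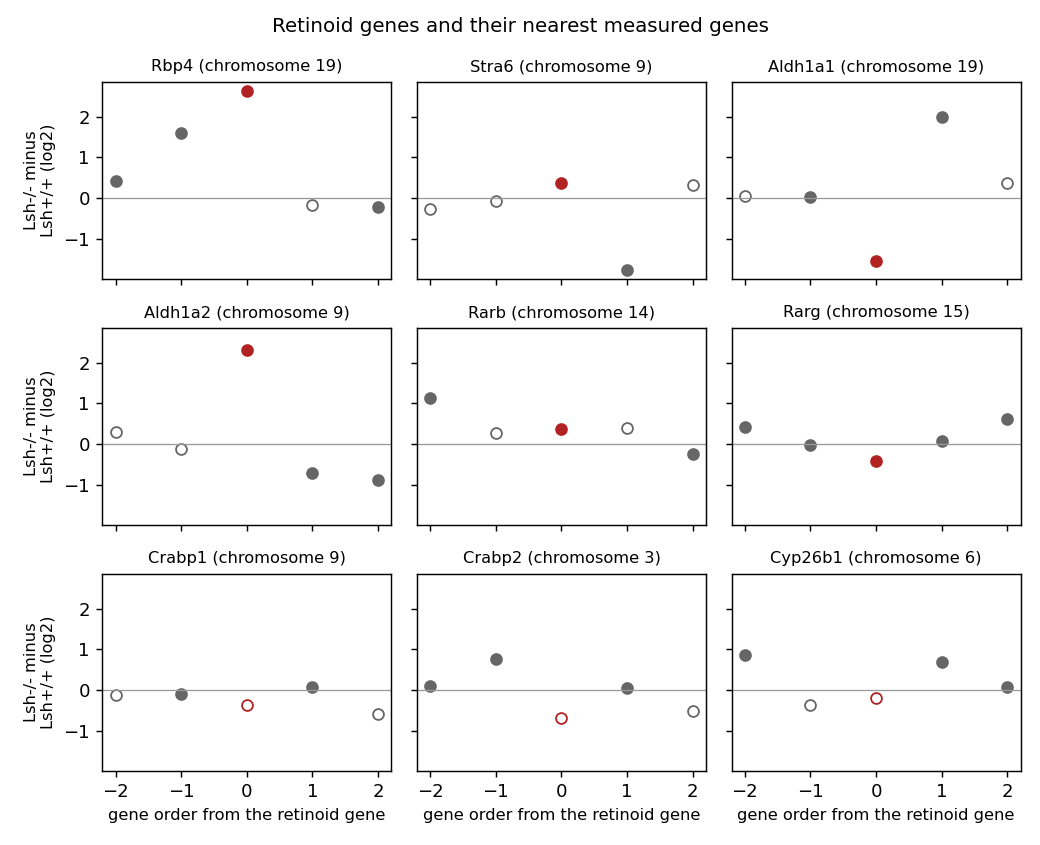
Differences (Lsh-/- minus Lsh+/+, log2, vertical axis) of each of the 9 retinoid genes (red, position 0) and of the nearest 2 measured genes on each side by gene order (grey). Open points lie below the brightness limit on both arrays. Aldh1a2 at 2.32 has neighbours at or below 0.30, Rbp4 at 2.63 has 1 neighbour at 1.60, and Aldh1a1 at -1.56 lies beside Aldh1a7 at 1.99.

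Markers of the labelled cell type and of others moved on the same arrays. Over all 9168 genes 4.65% were at least 2-fold higher in Lsh-/- MEF and 6.06% at least 2-fold lower. Of 12 fibroblast markers 11 passed the limit, with Thy1 below it on both arrays. Of the 11, 5 were at least 2-fold lower in Lsh-/- MEF: Col1a2 (-4.43), S100a4 (-3.99), Lum (-3.63), Pdgfra (-1.19) and Pdgfrb (-1.15). Lum was below the limit on the Lsh-/- array. The remaining 6 lay within 2-fold, among them Fn1 (-0.03), Vim (-0.09) and Col3a1 (0.78). Differences were below 0 for 10 of the 11, with a median of -0.73. The summed linear level of the fibroblast list, which adds probe sets of unlike sensitivity, was 15808 in Lsh-/- MEF and 22043 in Lsh+/+ MEF. Of 8 epithelial markers 5 passed, with Krt18 and Krt19 at least 2-fold higher and Krt15 at least 2-fold lower. Their summed linear level, 1851 in Lsh-/- MEF and 443 in Lsh+/+ MEF, was carried by Krt19 (1165 in Lsh-/- MEF and 141 in Lsh+/+ MEF) and Krt18 (484 in Lsh-/- MEF and 6.82 in Lsh+/+ MEF), so it is not a level of the whole list, and Epcam, Cdh1 and Krt5 were below the limit on both arrays.

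Mesothelium and epicardium, the linings of body cavities and heart, are known sites of Aldh1a2 in the embryo, and most of their markers were bright on both arrays. The uroplakin Upk3b read 10.0 in Lsh-/- MEF and 9.85 in Lsh+/+ MEF, and the transcription factor Wt1 8.93 in Lsh-/- MEF and 9.29 in Lsh+/+ MEF. Mesothelin, Msln, read 7.56 in Lsh-/- MEF and 7.08 in Lsh+/+ MEF. Of the 6 markers 5 passed the limit, and Tcf21 was below it on both arrays. Upk1b differed by -0.52. The summed linear level was 1864 in Lsh-/- MEF and 1822 in Lsh+/+ MEF. It was carried mostly by Upk3b (1047 in Lsh-/- MEF and 923 in Lsh+/+ MEF). Wt1 (488 in Lsh-/- MEF and 624 in Lsh+/+ MEF) came next, so the sum is not a level of the whole list. Tbx18 alone was past 2-fold, at 5.61 in Lsh-/- MEF and 3.08 in Lsh+/+ MEF, at least 3.36-fold higher over the limit. The part of any of these cell types in the retinoid differences was not tested.

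The hepatocyte markers are listed because liver is the main source of Rbp4, and all 4 were below the limit on both arrays. Ttr read 1.81 in Lsh-/- MEF and 1.69 in Lsh+/+ MEF, and Alb 2.25 in Lsh-/- MEF and 2.48 in Lsh+/+ MEF. The limit is not a detection limit, and a part of such cells in the Rbp4 difference was not tested. Of 4 adipocyte markers with a row, 2 passed the limit, Lpl as above and Fabp4 at 4.65 in Lsh-/- MEF and 5.55 in Lsh+/+ MEF, and Adipoq read 1.44 on both arrays. The summed linear level of the adipocyte list, 392 in Lsh-/- MEF and 158 in Lsh+/+ MEF, was mostly that of Lpl (358 in Lsh-/- MEF and 101 in Lsh+/+ MEF). In the endothelial list Egfl7 was 3.32-fold lower and Kdr 3.52-fold higher, with Pecam1, Cdh5 and Tek below the limit on both arrays. Of the blood markers 1 passed the limit and of the neural markers 2, all within 2-fold, where 89.3% of the 9168 genes were.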

How the data were processed

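Total RNA of 1 Lsh-/- and 1 Lsh+/+ MEF line was hybridised to 1 array each, per the labels' protocols. The authors deposited log2 values made with RMA, per the submitters' processing notes; that the scale is log2 was read from the range, 0.89 to 13.1, and settings, probe grouping and build are not given in the sources used here. Of 23950 rows, 64 were controls, 21230 matched 1 gene of the GRCm38.p6 RefSeq table by accession and 2656 matched none. Each gene was represented by its row of highest mean over the arrays. Genes were counted by size at 2-fold, with no test. Counting was tested on simulated data with planted differences far past 2-fold, so calls near 2-fold were not tested.

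The members and lists were chosen with earlier results of these data known, and some pathway genes are not reported here and were left out of the lists. Named were all members, other pathway genes at 2-fold or more, the 2 brightest of each list, Hells, and neighbours at 2-fold or more; Lrat, Dhrs3, Aldh1a3, Rara, the remaining neighbours and the marker genes were named after their values were seen. Promoter windows came from RefSeq (GRCm38.p6). Alternatives were the mean over rows, quantile normalization, loess (span 0.3), scaling to hybridisation controls, a linear pseudocount of 32, thresholds of 1.5-fold and 3-fold, no or an upper-quartile brightness limit, and subtraction of chromosome medians. Python 3.11.15, numpy 2.4.6, pandas 2.3.3, statsmodels 0.14.6 and matplotlib 3.10.9 were used.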

Additional observations from a re-analysis of the deposited data

How the results depend on the processing

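No paired analysis was possible because there was a single array of each genotype; leaving out replicates was likewise not possible. Rbp4 and Aldh1a2 stayed at least 2-fold higher and Aldh1a1 at least 2-fold lower under the mean over rows, quantile normalization, loess, the pseudocount of 32, chromosome-median subtraction and hybridisation-control scaling; their smallest differences, 1.67, 1.12 and -1.47, came with the pseudocount, which shrinks dim genes by construction. At 3-fold the count of lower members was 0, Aldh1a1 being 2.95-fold lower. Scaled to the hybridisation controls, Stra6 was -0.0625 and Rarb -0.072, and the other pathway genes had a median of -0.23, with 5 higher and 8 lower in place of 9 and 5. Those other genes numbered 2 higher and 0 lower with the pseudocount, 15 higher and 8 lower at 1.5-fold, 4 higher and 2 lower at 3-fold, 2 lower at the upper-quartile limit, and 7 higher with chromosome medians subtracted. Scanner signals and detection calls were not used here, so how far the dim members lie above background is unknown.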
